A study of Homo sapiens with 4 samples.

Results

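The S100 family is a set of small calcium-binding proteins, and 10 of its genes were followed here among the 33694 genes listed for each library: *S100A2*, *S100A4*, *S100A6*, *S100A8*, *S100A9*, *S100A10*, *S100A11*, *S100A14*, *S100A16* and *S100P*. They were picked by symbol, with their levels in these same libraries known, from 21 genes of the family that the files list, so every value below is a description and carries no test. The cells were OVCA420, an established human cell line described as ovarian cancer, profiled by 3′ single-cell RNA-seq (scRNA-Seq), in which each captured transcript carries a unique molecular identifier (UMI). One culture was untreated (Ctrl), and the others received TGF-β1, the cytokine most used to induce epithelial-mesenchymal transition (EMT), at 10 ng/mL for 1 day, 3 days or 7 days. Each condition is 1 library from 1 cell line, so differences between conditions and differences between cultures or libraries cannot be told apart, and all intervals given are exact 95% intervals for counting error only.

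S100 proteins carry paired EF-hand motifs, usually work as dimers, and change shape on binding calcium so that they can dock onto target proteins such as annexins, cytoskeletal motors and p53. Most of their genes sit in the epidermal differentiation complex on chromosome 1q21, beside genes for proteins of the cornified envelope. S100A10 differs from most members in that it no longer binds calcium and is instead held in a complex with annexin A2. S100A8 and S100A9 pair as calprotectin, a product typical of neutrophils and monocytes.

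Levels are given as CPM, the UMIs of a gene summed over all retained cells of a library and scaled to a library total of 1000000 UMIs. A 3′ kit counts each transcript once whatever its length, so CPM of different genes were compared without division by length. A total of 933 Ctrl, 937 1-day, 705 3-day and 569 7-day cells were retained, with 25382817 to 32949874 UMIs per library and a median of 30270 to 43553 UMIs per cell. Pairs of libraries shared 1 to 7 cell barcodes. All 6 epithelial markers examined were above the floor of 3 UMIs in every library (*EPCAM* 297 to 361 CPM), whereas the 5 ovarian carcinoma markers summed to only 0.467 to 3.63 CPM. Of these, *WT1* was at 0 in every library, *PAX8* held 4 to 10 UMIs and *WFDC2* 1 to 3, while *MUC16*, which encodes CA125, held 89 UMIs (2.97 CPM) in Ctrl and 4 to 14 in the treated libraries.

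The 9 members on chromosome 1 lie between *S100A10* and *S100A14*, within a stretch that runs from *S100A10* to *S100A1* (chr1:151982915-153632039, GRCh38) and holds 63 annotated protein-coding genes, 16 of them of the S100 family. *S100A10* and *S100A11* form one end, 38646 bases apart. At the other end *S100A6*, *S100A4*, *S100A2*, *S100A16* and *S100A14* follow each other, with *S100A5* and *S100A3* among them and 1109 bases between *S100A16* and *S100A14*. *S100P* lies apart, at chr4:6693878-6697170. The 250 bases before the RefSeq transcription starts (GRCh38.p14) are printed for the genes on which the results turn: the members that were at least 2-fold higher than Ctrl in any treated library, the abundant member that was lower (*S100A14*) and the rare member with the lowest ratio to Ctrl (*S100P*). Each runs 5′ to 3′ on the gene's own strand, and capitals mark letters that match, on either strand, the SMAD CAGA box (CAGACA), an AP-1 site (TGANTCA), a C/EBP site (TTGCNNAA) or a TATA box (TATAAA).
S100A2, chr1:153565845-153566094 (minus strand): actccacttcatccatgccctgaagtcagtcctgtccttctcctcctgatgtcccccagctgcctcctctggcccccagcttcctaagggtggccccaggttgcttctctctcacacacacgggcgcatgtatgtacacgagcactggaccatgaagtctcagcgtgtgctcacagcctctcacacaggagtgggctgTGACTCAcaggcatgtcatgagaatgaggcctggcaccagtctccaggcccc
S100A2, chr1:153563888-153564137 (minus strand): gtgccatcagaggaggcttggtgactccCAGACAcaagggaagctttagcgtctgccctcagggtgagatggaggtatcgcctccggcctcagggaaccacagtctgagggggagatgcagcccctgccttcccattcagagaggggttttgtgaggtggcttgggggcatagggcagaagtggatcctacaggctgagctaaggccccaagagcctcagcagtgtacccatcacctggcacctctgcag
S100A10, chr1:151993860-151994109 (minus strand): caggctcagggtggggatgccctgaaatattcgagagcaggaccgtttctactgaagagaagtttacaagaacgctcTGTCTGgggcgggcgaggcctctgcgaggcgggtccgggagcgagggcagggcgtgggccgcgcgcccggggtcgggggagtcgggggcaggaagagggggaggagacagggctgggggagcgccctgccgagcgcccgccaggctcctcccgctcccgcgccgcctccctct
S100A11, chr1:152037005-152037254 (minus strand): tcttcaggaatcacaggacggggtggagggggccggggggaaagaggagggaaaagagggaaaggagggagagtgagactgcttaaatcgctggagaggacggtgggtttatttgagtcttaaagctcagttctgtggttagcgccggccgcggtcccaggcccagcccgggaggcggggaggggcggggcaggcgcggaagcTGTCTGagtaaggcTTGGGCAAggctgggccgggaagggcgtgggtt
S100A14, chr1:153616326-153616575 (minus strand): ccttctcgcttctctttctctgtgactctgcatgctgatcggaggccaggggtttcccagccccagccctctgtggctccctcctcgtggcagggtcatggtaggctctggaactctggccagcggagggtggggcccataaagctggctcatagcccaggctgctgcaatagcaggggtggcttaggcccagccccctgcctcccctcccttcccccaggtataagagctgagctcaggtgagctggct
S100P, chr4:6693628-6693877 (plus strand): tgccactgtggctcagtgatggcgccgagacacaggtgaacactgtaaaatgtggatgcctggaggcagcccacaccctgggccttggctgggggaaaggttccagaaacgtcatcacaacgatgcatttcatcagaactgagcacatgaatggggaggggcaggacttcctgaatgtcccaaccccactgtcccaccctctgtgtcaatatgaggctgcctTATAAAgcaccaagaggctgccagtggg

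CAGACA or its complement was found in 6 of the 14 windows of the 10 members, belonging to *S100A2*, *S100A8*, *S100A10*, *S100A11* and *S100A16* (both of its windows, not printed), beside 13.6% of 35116 windows of the same length genome-wide. TGANTCA stood in 1 window, that of the upstream *S100A2* start, where it lay 52 bases before the start, against 6.57% of all windows. TTGCNNAA stood in the *S100A11* window only (9.05% of all windows), and TATAAA in 5 windows, of *S100A4*, *S100A8*, *S100A9* and *S100P* (10.7%). The windows of *S100A6* and *S100A14* held none of these letters. The 3 windows of *S100A8* overlap each other. A match is a run of letters and was not tested as a binding site.

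The abundant members carried nearly all S100 transcripts. *S100A2*, a nuclear family member known as a p63 target in epithelium, stood at 4633 CPM (4608 to 4657) in Ctrl cells, and treated cells had 12629 CPM at 1-day, 13265 at 3-day and 9517 at 7-day. It ranked 26th among all genes in Ctrl and 5th, 2nd and 9th in the treated libraries in that order. All of the treated libraries lay above Ctrl, by log2 1.45 at 1-day, 1.52 at 3-day and 1.04 at 7-day. The 1-day and 3-day levels differed by log2 0.07 only, and the 7-day level was below 3-day by log2 −0.48 (−0.49 to −0.47).

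*S100A11*, an annexin A1 partner involved in membrane repair and keratinocyte growth control, had 1223 CPM in Ctrl cells, and treated cells had 3215 at 1-day, 3481 at 3-day and 2483 at 7-day. Its log2 ratios to Ctrl of 1.39, 1.51 and 1.02 ran close to those of *S100A2*. *S100A10*, the p11 light chain of the annexin A2 complex, was at 1069, 3258, 2202 and 1298 CPM in the same order. It was highest at 1-day (log2 1.61, 1.59 to 1.63) and then lower at each later time, at log2 1.04 at 3-day and 0.28 at 7-day. Thus *S100A10* and *S100A11* were within 1.5-fold of each other in Ctrl and 1-day cells, while at 7-day *S100A10* was near its Ctrl level and *S100A11* was not.

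*S100A16*, a widely expressed member, had 737 CPM in Ctrl cells, and the treated libraries had 1048, 1034 and 968 CPM in order of time, with log2 ratios of 0.51, 0.49 and 0.39. *S100A14*, its neighbour on the chromosome and an epithelial member, had 742, 585, 502 and 537 CPM, with ratios of −0.34, −0.56 and −0.47. In Ctrl the intervals of these neighbours overlapped, whereas in every treated library *S100A16* was above *S100A14*. *S100A14* was the only abundant member with a lower level in each treated library than in Ctrl, also after each alternative scaling and filter.

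**Figure D1:**
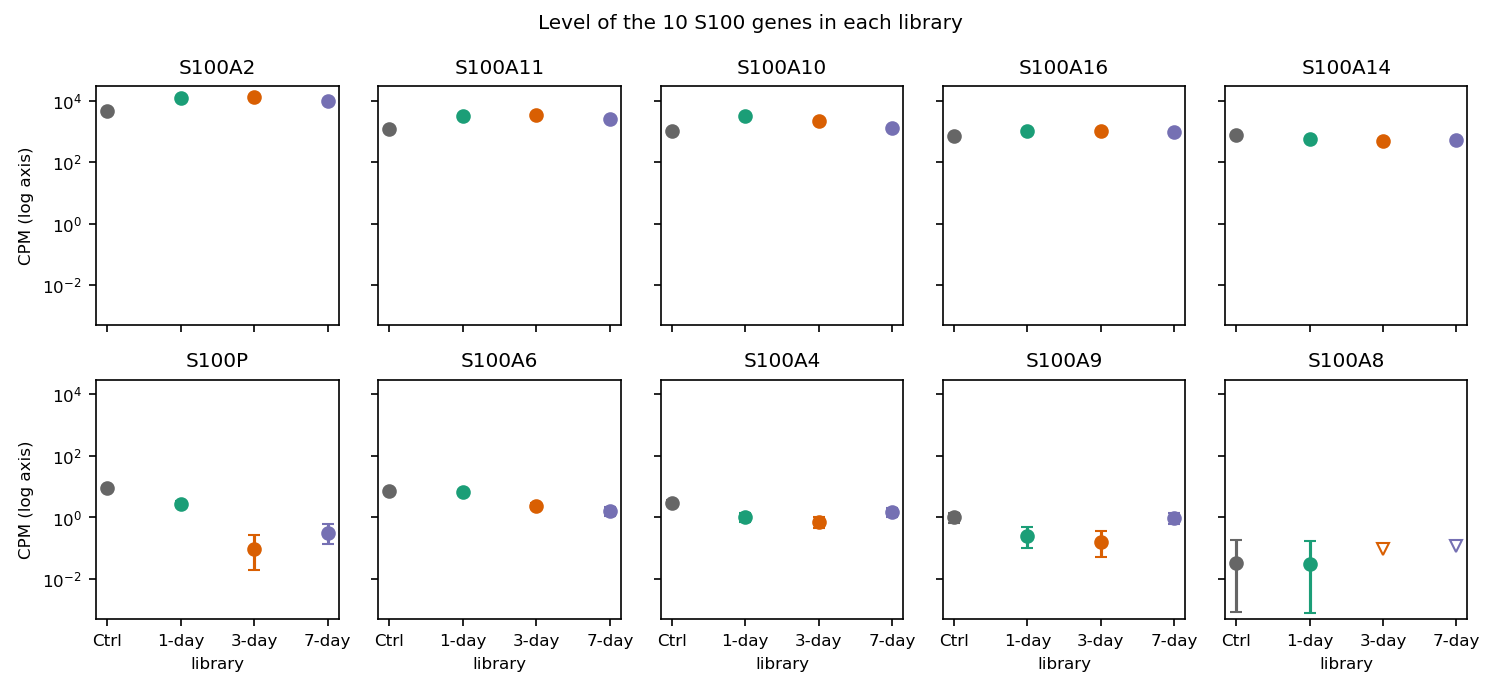
Level of each of the 10 genes in CPM on a log axis (vertical) in the Ctrl, 1-day, 3-day and 7-day libraries (horizontal), 1 point per library with an exact 95% Poisson interval for counting error, which is hidden by the point where it is narrow. An open triangle marks the floor of 3 UMIs where no UMI was counted. *S100A2*, *S100A10*, *S100A11*, *S100A14* and *S100A16* stay above 500 CPM in every library, and the other members stay below 10 CPM.

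Counting at 2-fold or more among members with a mean of at least 10 CPM over the 4 libraries, 3 of 5 were higher at 1-day (*S100A2*, *S100A10* and *S100A11*), where 9.29% of the 7747 genes at that level were. At 3-day the same 3 of 5 were higher (10.1% of genes), and at 7-day 2 of 5, *S100A2* and *S100A11* (10.8%). None of the 5 was 2-fold lower at 1-day, 3-day or 7-day, where 7.68%, 4.18% and 4.08% of genes were. The 7-day count rests on log2 ratios just past 1: with median-of-ratios size factors in place of CPM the ratios were 0.98 for *S100A2* and 0.96 for *S100A11*, and the count was 0. The median log2 ratio of these 5 members was 1.39 at 1-day, 1.04 at 3-day and 0.39 at 7-day, beside −0.04, 0.06 and 0.11 over all 7747 genes. All of the comparisons share the 1 Ctrl library, and the members were chosen with these ratios known.

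The 21 family genes together summed to 8521 CPM in Ctrl cells, which is 0.852% of UMIs, and to 20905, 20661 and 14985 CPM in the treated libraries in order of time. *S100A2* alone accounted for 54.4% of the family's UMIs in Ctrl and for 60.4% to 64.2% in the treated libraries. Of the 21, 6 to 9 genes had no UMI at all in a given library. Beyond the 10 members, *S100A13* was at 91.1, 145, 159 and 167 CPM (log2 0.67, 0.81 and 0.88 to Ctrl), and unlike the abundant members it was highest at 7-day. That level was above 3-day by log2 0.07 only (0.01 to 0.13). Median-of-ratios scaling shifts ratios to Ctrl by 0.02 at 3-day and −0.06 at 7-day, so this order may depend on the scaling. *S100A3* was at 6.43, 13.4, 13.2 and 8.94 CPM (log2 1.06, 1.03 and 0.48). Its annotated span lies within that of *S100A4* on the same strand, so the split of reads between those genes is uncertain. *S100A3* UMIs were 0.0940% to 0.139% of those of *S100A2* in each library.

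The remaining 5 members were rare transcripts. *S100P*, a placental and carcinoma-associated member, held 276 UMIs (9.20 CPM) in Ctrl cells. Only 92 UMIs (2.79 CPM) were left at 1-day, 3 at 3-day and 8 (0.315 CPM) at 7-day. The log2 ratios to Ctrl were −1.72 (−2.08 to −1.38), −6.62 (−8.91 to −5.06) and −4.87 (−6.09 to −3.87), and the order 3-day against 7-day was within counting error (log2 1.76, −0.30 to 4.30). With every cell thinned to 18000 UMIs, 7.58% of Ctrl cells held an *S100P* UMI (5.89 to 9.58), 2.78% of 1-day cells, 0 of 677 3-day cells, which at the floor of 3 counts allows a share of up to 0.443% (exact upper limit 0.543%), and 0.364% of 7-day cells. At full depth the shares were 10.5%, 4.38%, 0.426% and 0.879%. In Ctrl the 10 cells with most *S100P* held 44.6% of its UMIs.

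*S100A6*, calcyclin, which is widely expressed in other epithelial cells, was rare here, with 7.07 CPM in Ctrl cells and 6.77, 2.36 and 1.58 CPM in treated cells at 1-day, 3-day and 7-day. The levels in Ctrl and 1-day cells were alike within counting error (log2 −0.06, −0.34 to 0.22), and those at 3-day and 7-day were lower by log2 −1.58 and −2.17. Its UMIs were held by few cells: 1 cell held 55 of 212 UMIs in Ctrl, 78 of 223 at 1-day and 29 of 76 at 3-day. Without that cell in each library the ratios were −0.25, −1.84 and −1.92. The 3-day ratio ranged widely with the setting, at −1.03 as a mean over cells, −2.31 with at most 10% mitochondrial UMIs and −2.77 among G1 cells alone. An lncRNA is annotated on the opposite strand of *S100A6* and has its own row in the files.

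*S100A4*, the member known as a fibroblast and metastasis-associated marker that is often read as mesenchymal, had 87 UMIs (2.90 CPM) in Ctrl cells, and treated cells had 34 (1.03 CPM) at 1-day, 23 (0.716) at 3-day and 37 (1.46) at 7-day. Every treated library lay below Ctrl, by log2 −1.49, −2.02 and −0.99, and the 7-day level was above 3-day by log2 1.03 (0.24 to 1.84). With every cell thinned, 5.33% of Ctrl cells and 1.33% to 2.55% of treated cells held a UMI (7.40% and 3.12% to 6.33% at full depth). Since *S100A3* lies inside its annotated span, these counts are uncertain in the same way.

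*S100A9* held 30 UMIs (1.00 CPM) in Ctrl cells, while the treated libraries held 8, 5 and 25 in order of time (0.243, 0.156 and 0.985 CPM). The 1-day and 3-day libraries were lower than Ctrl by log2 −2.04 (−3.38 to −0.88) and −2.68 (−4.41 to −1.30), and the 7-day ratio was −0.02 (−0.85 to 0.79). Thinning moved the 3-day ratio to −1.68 and the 7-day ratio to 0.94, and the latter was 0.42 as a mean over cells and 0.40 in G1 cells. Few cells decide these values: 1 cell held 7 of the 8 UMIs at 1-day, without which and without the top Ctrl cell the ratio was −4.46, while thinning gave −0.77, which is short of 2-fold. *S100A8* was at 1, 1, 0 and 0 UMIs, under the floor in every library, so no fold is given. The 1-day cell with the *S100A8* UMI was the one that held those 7 *S100A9* UMIs. Among 10 myeloid and neutrophil markers, 4 to 6 were at 0 in a library, *PTPRC* held 2 UMIs in Ctrl and 0 elsewhere, *CSF3R* was at 0 throughout, and *CD68*, a lysosomal gene, made up most of the list's 2.27 to 6.78 CPM. From Ctrl to 7-day, *CD68* was at 1.53, 3.00, 4.73 and 6.19 CPM. In the same order *ITGAM* held 0, 4, 4 and 12 UMIs, and *LYZ* held 15, 9, 3 and 1.

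When members with a mean of at least 1 CPM were counted, 8 of 10 qualified. At 2-fold or more, *S100A4* and *S100P* were lower at 1-day (10.6% of the 12694 genes at that level were), *S100A4*, *S100A6* and *S100P* at 3-day (8.54%) and *S100A6* and *S100P* at 7-day (7.85%). The counts of higher members stayed at 3, 3 and 2, beside 10.2%, 10.9% and 12.9% of genes. Over all 10 members, with *S100A9* included and *S100A8* given no fold, 3 were 2-fold lower at 1-day, 4 at 3-day and 2 at 7-day, beside 13.4%, 13.4% and 11.3% of genes with more than 3 UMIs in either library. The 7-day count leaves out *S100A4*, whose log2 ratio of −0.99 was just short of 2-fold. With median-of-ratios size factors it was −1.05, as a mean over cells −1.11, in thinned cells −1.24, without marked doublets −1.04 and in G1 cells −1.21, and in each of these the 7-day count was 3. Of the abundant members 4 of 5 were above Ctrl at each time, as were 36.8% of the 7747 genes. Of the 8 members with a mean of at least 1 CPM, *S100A4*, *S100A6*, *S100A14* and *S100P* were below Ctrl at each time, *S100A6* within counting error at 1-day, as were 33.0% of the 12694 genes.

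Along 1q21, higher and lower genes lay in short runs when only genes with a mean of at least 1 CPM were followed. Rarer genes lying between them were left out, and some of these had ratios in the other direction. The order was not compared with other regions. Of the 61 protein-coding genes of the stretch that are listed in the files, 14 had a mean of at least 1 CPM and 8 of at least 10 CPM, 7 of these being S100 genes. The only other one was *CRCT1*, a cysteine-rich gene of the epidermal differentiation complex, with 289 CPM in Ctrl cells and 1845, 1866 and 1357 CPM in order of time under TGF-β1 (log2 2.67, 2.69 and 2.23). In the list of 23 further genes of that complex, 4 had a mean of at least 1 CPM. *CRCT1* and *LCE3E* were 2-fold higher at each time, and *SPRR1B* was at 1-day. Of the 12694 genes at that level, 10.2%, 10.9% and 12.9% were higher in order of time. *SPRR1B* and *SPRR3*, both cornified envelope precursors, were 2-fold lower at 3-day and 7-day, where 8.54% and 7.85% of those genes were. *LCE3E*, at 0.167 CPM in Ctrl, reached the mean of 1 CPM only through the treated libraries. *SPRR1B* and *SPRR3* reached it only through Ctrl and 1-day. The directions of these rare genes are thus partly set by the filter. *S100A4*, which was lower, lies next to *S100A3* and *S100A2*, which were higher, and *S100A14* lies between *S100A16* and *S100A13*, which were higher.

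**Figure D2:**
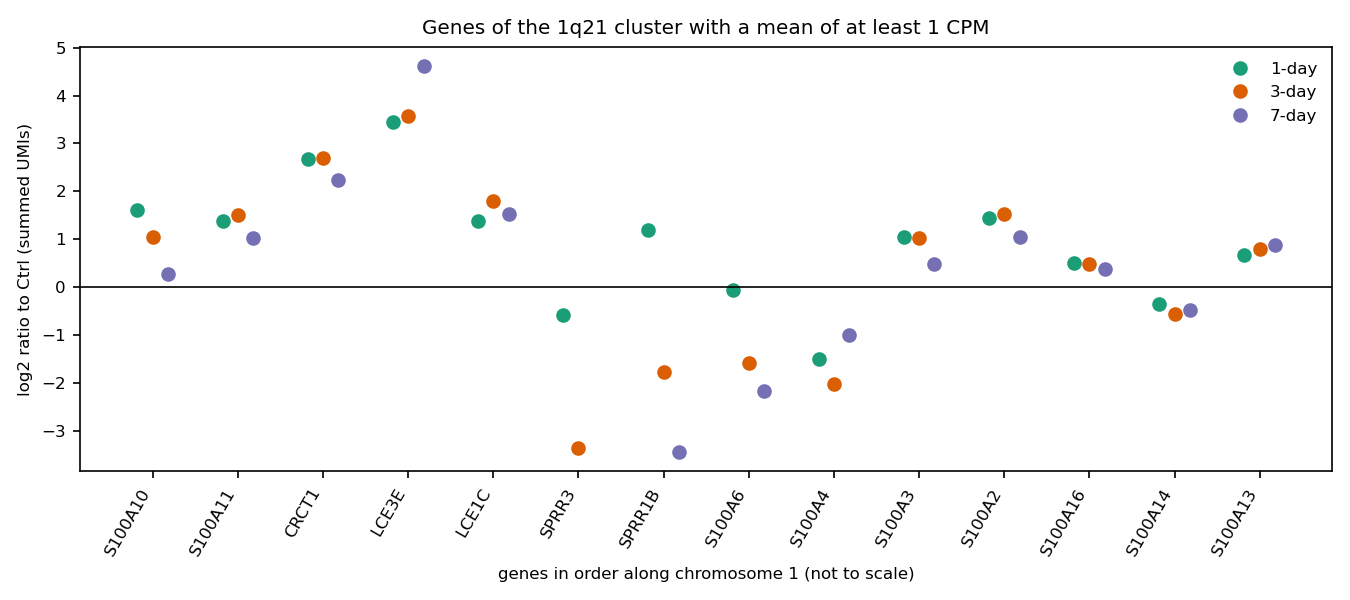
Log2 ratio of each treated library to Ctrl (vertical) for the 14 protein-coding genes of the 1q21 stretch with a mean of at least 1 CPM, in their order along chromosome 1 and not to scale (horizontal). Each point is 1 library against the same Ctrl library, and a point is left out where a library held 3 UMIs or fewer. *LCE3E* reached the mean of 1 CPM only through the treated libraries, and *SPRR1B* and *SPRR3* only through Ctrl and 1-day. From left to right, *S100A10* to *LCE1C* lie above 0 at each time, *SPRR3*, *S100A6* and *S100A4* below 0 at each time shown, *S100A3*, *S100A2* and *S100A16* above, *S100A14* below and *S100A13* above, while *SPRR1B* is above 0 at 1-day and below it afterwards.

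Of 21 genes for proteins known to bind S100 proteins, 14 had a mean of at least 10 CPM, and the 2-fold counts were 3 higher at 1-day and 3-day and 4 at 7-day, with none lower, where 9.29%, 10.1% and 10.8% of all 7747 genes were higher and 7.68%, 4.18% and 4.08% lower. *ANXA2*, the annexin that holds S100A10, had 484 CPM in Ctrl cells, and the treated libraries had 1144, 1023 and 975 CPM (log2 1.24, 1.08 and 1.01), so that it stayed near its 1-day level at 7-day, where *S100A10* did not. The 7-day ratio of *ANXA2* is just past 2-fold. Median-of-ratios scaling shifts 7-day ratios by −0.06, so the 7-day count of 4 depends on the scaling. *ANXA5* was at 94.8, 269, 255 and 205 CPM. *ANXA1*, which encodes the annexin partner of S100A11, went the other way, at 403, 237, 281 and 294 CPM. Its log2 ratios of −0.77, −0.52 and −0.46 were short of 2-fold and opposite in direction to those of *S100A11*. *MYH9*, the non-muscle myosin heavy chain bound by S100A4, was at 71.5, 174, 276 and 297 CPM (log2 1.28, 1.95 and 2.06), opposite in direction to *S100A4*.

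*AHNAK*, a scaffold bound by the S100A10 and annexin A2 complex, was at 155, 189, 114 and 109 CPM. *EZR*, which encodes ezrin, was at 89.8, 59.1, 78.8 and 106 CPM. Among the cell surface proteins, *BSG*, a receptor for S100A9, was nearly flat at 182, 181, 179.7 and 200.3 CPM, and *ALCAM* was at 57.3, 39.0, 83.6 and 147 CPM, past 2-fold at 7-day only. *PLAT*, tissue plasminogen activator, had a mean under 10 CPM and so was not among the 14. It encodes a protease that docks on S100A10 at the cell surface, and was at 11.5, 1.18, 1.46 and 5.79 CPM, log2 −3.28 at 1-day, −2.98 at 3-day and −0.99 at 7-day.

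The remaining receptors for S100 proteins past 2-fold were rare transcripts. Among all genes with more than 3 UMIs in either library, 13.4%, 13.4% and 11.3% were 2-fold lower in order of time. The share that was higher was not taken at that limit. *MCAM*, a receptor for S100A8 and S100A9, held 4 UMIs in Ctrl cells and 13, 20 and 28 in the treated libraries in order of time. Its log2 ratios were 1.56 (−0.13 to 3.64), 2.22 (0.64 to 4.23) and 3.05 (1.53 to 5.02), so the 1-day direction was within counting error. *AGER*, which encodes the receptor RAGE, held 21, 8, 9 and 6 UMIs, with log2 ratios of −1.53, −1.32 and −1.57 whose intervals reach −0.13. *TLR4*, a receptor for S100A8 and S100A9, held 0 UMIs in Ctrl and 10, 8 and 9 under TGF-β1. With Ctrl set to the floor of 3 UMIs its log2 ratios were 1.60, 1.32 and 1.83. The exact lower limits of these ratios were log2 1.03, 0.67 and 1.22. *CD36* held 9 UMIs in Ctrl, 4 at 1-day and 0 at 3-day and 7-day. Its 1-day log2 ratio of −1.31 (−3.46 to 0.54) was within counting error. With the 0 counts set to the floor its log2 ratios at 3-day and 7-day were −1.68 and −1.34, with exact upper limits of −1.08 and −0.74. The limits for *TLR4* at 3-day and *CD36* at 7-day fall short of 2-fold.

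Single cells showed how the abundant members were spread. In Ctrl, *S100A2* fell into separate ranges: a main one with its peak between 4095 and 5792 CPM and a smaller one with its peak between 180.0 and 255 CPM. The emptiest bin between them, from 511 to 723 CPM, held 8 of 933 cells. A boundary was set in that bin, at 608 CPM, after the values were seen. Below it lay 105 of 933 Ctrl cells (11.3%, 9.30 to 13.5), 6 of 937 1-day cells (0.640%, 0.235 to 1.39), 1 of 705 3-day cells (0.142%) and 0 of 569 7-day cells, which at the floor of 3 counts allows a share of up to 0.527% (exact upper limit 0.646%). Free RNA, which can put UMIs of an abundant transcript into every droplet, was not measured here, so the low range cannot be told apart from background, and the shares at a fixed boundary are given side by side only. Because treated cells had more *S100A2*, a boundary at an eighth of each library's own median was also used, and it gave 103 of 933 Ctrl cells, 2.77% at 1-day, and 0.567% and 0.176% at the later times. The ratio of the 90th to the 10th percentile of *S100A2* per cell was 20.5 in Ctrl and 2.84 to 3.65 in the treated libraries. For the other 4 abundant members this ratio was 2.27 to 4.72 over all libraries.

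**Figure D3:**
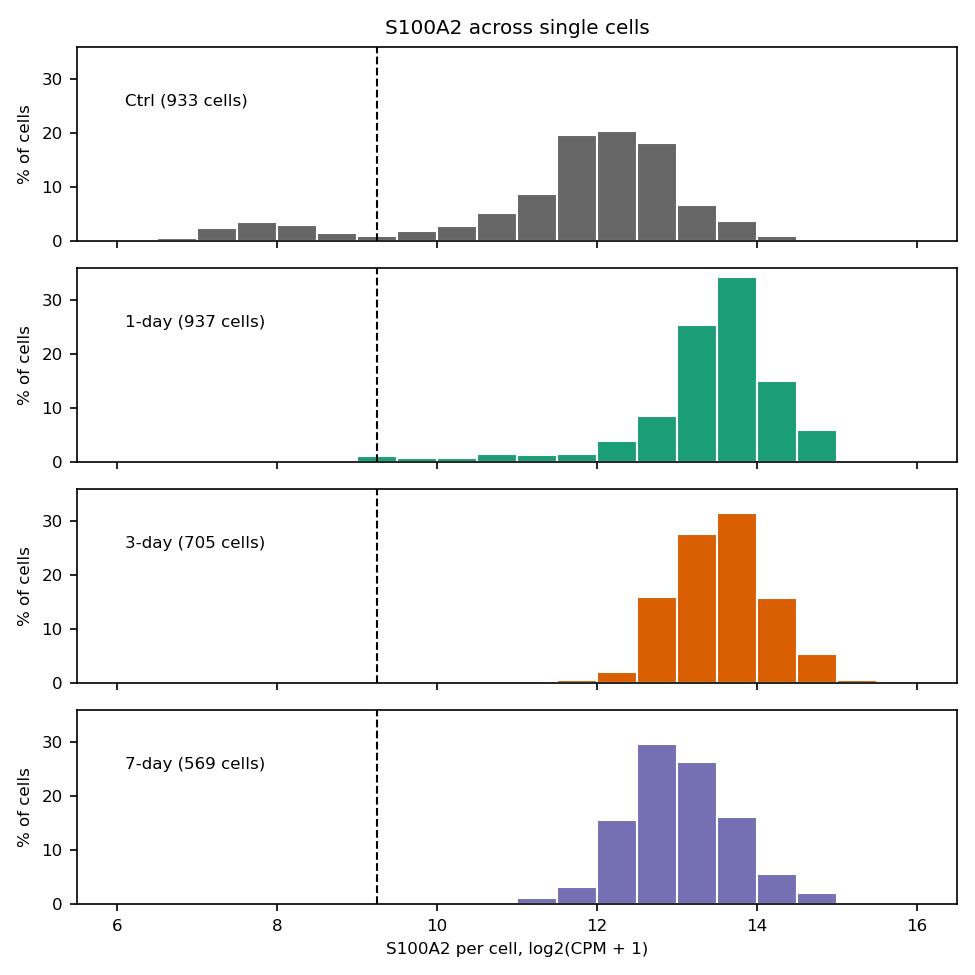
Share of cells in percent (vertical) by *S100A2* level per cell, as log2 of CPM plus 1 in bins of 0.5 (horizontal), with 1 panel per library. The dashed line is the boundary at 608 CPM, with 105 of 933 Ctrl cells to its left and 6 of 937, 1 of 705 and 0 of 569 cells in the 1-day, 3-day and 7-day libraries.

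The Ctrl cells below the boundary had 245 CPM of *S100A2* against 5225 CPM in the 828 others, a difference that the boundary itself fixed. The other members in these cells were described with no test. *S100A10* was at 754 against 1112 CPM, *S100A11* at 819 against 1277 and *S100A16* at 549 against 762, while *S100A14* was at 782 against 736. *S100A3* was at 0 UMIs against 7.30 CPM, and *S100A13* at 40.4 against 98.0 CPM. *S100A6* was higher, at 28.9 (23.6 to 35.0) against 4.12 CPM, and 13.7 without the 1 cell that held 55 UMIs. The share of cells with an *S100A6* UMI was 11.4% (6.05 to 19.1) against 6.76% (5.15 to 8.69), and these intervals overlapped.

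Genes at 20 CPM or more in either range were ranked. The 8 ranked lowest in the *S100A2*-low cells included *PMEPA1*, a TGF-β target, at 3.08 against 75.4 CPM. The keratin *KRT6A*, at 1.40 against 45.2 CPM, was also among them. These genes were picked from the 8 after the values were seen. Outside the 8 genes ranked lowest, *TP63*, which encodes the basal epithelial factor p63, was at 10.9 against 73.0 CPM. The metallothionein *MT2A*, also outside them, was at 157 against 2462 CPM. Both were picked after the values were seen. The 8 genes ranked highest included *KRT4* (76.2 against 6.28 CPM), *LCN2* (97.0 against 18.7 CPM) and the mucin *MUC5B* (26.6 against 3.75 CPM), picked in the same way. The low cells were not shallower, with a median of 33142 UMIs against 29864, and held 1 marked doublet of the 9 in Ctrl. A *KRT13* UMI was present in 21 of the 105 and in 315 of the 828 others (38.0%).

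Within each library, most pairs of abundant members varied together from cell to cell. Pearson correlations were taken over cells of 1 library on log-normalized counts, and the cells share the library and its depth range, so they are descriptions with no test. The median over the 10 pairs was 0.36 over 933 Ctrl cells, and over the 937, 705 and 569 treated cells it was 0.22, 0.38 and 0.43 in order of time. No such values were taken for pairs of other abundant genes, so whether these members stand out from them was not tested. *S100A10* and *S100A11*, neighbours at one end of the stretch, had the highest pair values in Ctrl, 1-day and 7-day cells. Their r was 0.62, 0.55 and 0.62 there, and 0.57 at 3-day, where *S100A2* with *S100A10* was highest at 0.59. *S100A2* and *S100A11*, which lie 1513200 bases apart, were close to the *S100A10* and *S100A11* values, at 0.49, 0.46, 0.58 and 0.61. Which was higher, *S100A10* with *S100A11* or *S100A2* with *S100A11*, changed with the setting outside Ctrl. *S100A2* with *S100A11* was the higher at 1-day by Spearman's rho (0.51 against 0.49). At 7-day it was the higher in thinned cells (0.59 against 0.54) and in G1 cells (0.61 against 0.56).

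*S100A14* stood apart from *S100A2*, with r of 0.01 over Ctrl cells and of −0.26, 0.16 and 0.15 over treated cells in order of time. The 1-day value was also negative in thinned cells (−0.26), by Spearman's rho (−0.15) and among G1 cells (−0.29). Also at 1-day, *S100A2* and *S100A16* had r of −0.07 and *S100A11* and *S100A14* 0.01, so that 3 of the 10 pairs did not vary together there. *S100A14* and *S100A16*, 1109 bases apart, had r of 0.45, 0.38, 0.39 and 0.27.

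**Figure D4:**
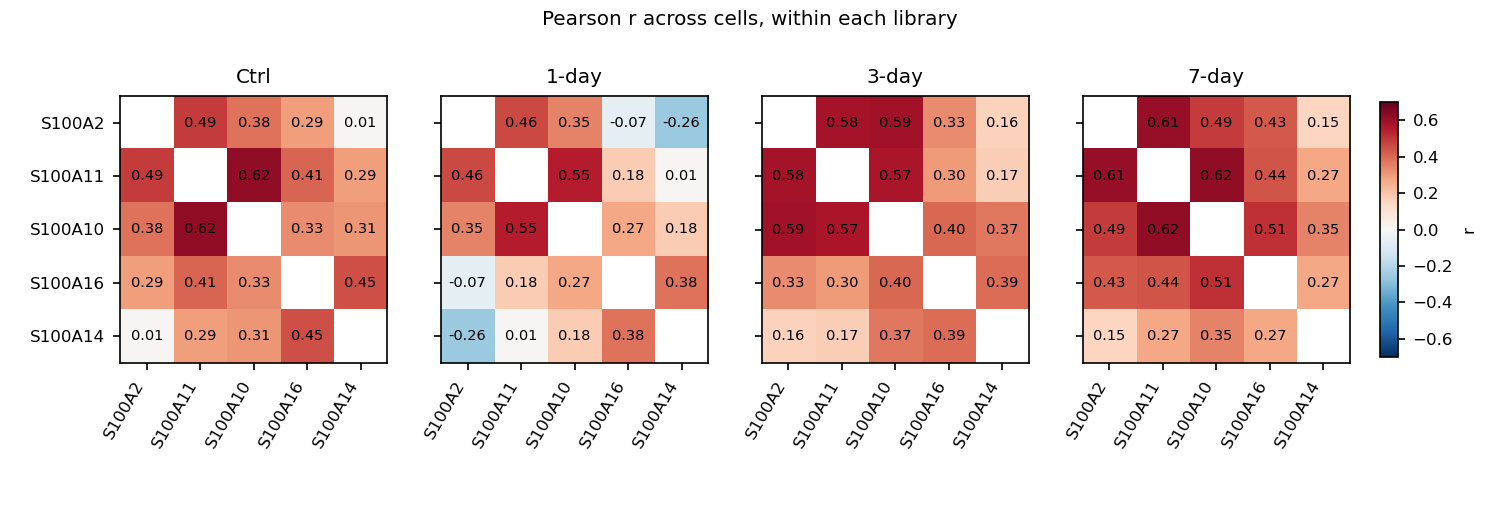
Pearson r between pairs of the 5 abundant members across cells, 1 panel per library, with red for positive and blue for negative r and the value printed in each square. *S100A10* with *S100A11* lies between 0.55 and 0.62 in the 4 libraries, and *S100A2* with *S100A14* is negative at 1-day (−0.26).

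Among 7683 genes with a UMI in at least 20% of the cells of every library, the gene most like *S100A2* by the mean of the 4 within-library r was *S100A11* (0.53), followed by *TXNDC17* (0.52) and *S100A10* (0.45). For *S100A10* it was *S100A11* (0.59), then *S100A2* and *SH3BGRL3* (0.42), and for *S100A11* it was *S100A10*, *S100A2* and *MYL12B* (0.49). *S100A14* was most like *S100A16* (0.37), *S100A10* (0.30) and *SH3BGRL3* (0.27), and *S100A16* was most like *TMSB10* (0.40), *SH3BGRL3* (0.40) and *S100A10* (0.38). *S100A8* had 0 UMIs at 3-day and 7-day, so no mean r was formed for it. The other rare members had no gene with a mean r above 0.20, and their few UMIs limit how well r is measured. For *S100P* the closest were *HPGD* (0.20), *MACROD2* (0.19) and *PRR15* (0.18), for *S100A4* *MAL2* (0.13), *PRR15* (0.10) and *IGFBP6* (0.09), for *S100A6* *AQP5* (0.12), *MGST1* (0.11) and *RPL41* (0.11), and for *S100A9* *KRT6A* (0.12), *TIMP2* (0.12) and *DSC2* (0.11). Single libraries differed: *S100P*, with 8 UMIs at 7-day, had r of 0.56 there with *PRR15* and 0.42 with *HPGD*. At 3-day, with 3 UMIs, these were 0.00 and 0.05.

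The libraries differed in cell cycle phase, with 25.8% of Ctrl cells called G1 beside 78.0%, 47.7% and 37.4% of treated cells in order of time, and the abundant members differed by phase. *S100A2* was at 5071 CPM in G1 and 4307 in G2M cells of Ctrl, 13261 and 10292 at 1-day, 15273 and 11385 at 3-day, and 11594 and 7762 at 7-day. All 5 abundant members were higher in G1 than in G2M in each of the 4 libraries, as were 22.0% of the 7747 genes. The log2 differences ran from 0.13 (*S100A10* in Ctrl) to 0.58 (*S100A2* at 7-day). Between G1 cells alone the ratios to Ctrl were 1.39, 1.59 and 1.19 for *S100A2* and 1.60, 1.21 and 0.49 for *S100A10*, with the same direction and order of times as in all cells. *S100A16* kept its direction but not its order, with 0.36, 0.48 and 0.46 between G1 cells against 0.51, 0.49 and 0.39 in all cells. *S100A11* was at 1.25, 1.51 and 1.09 and *S100A14* at −0.53, −0.62 and −0.59 between G1 cells.

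**Figure D5:**
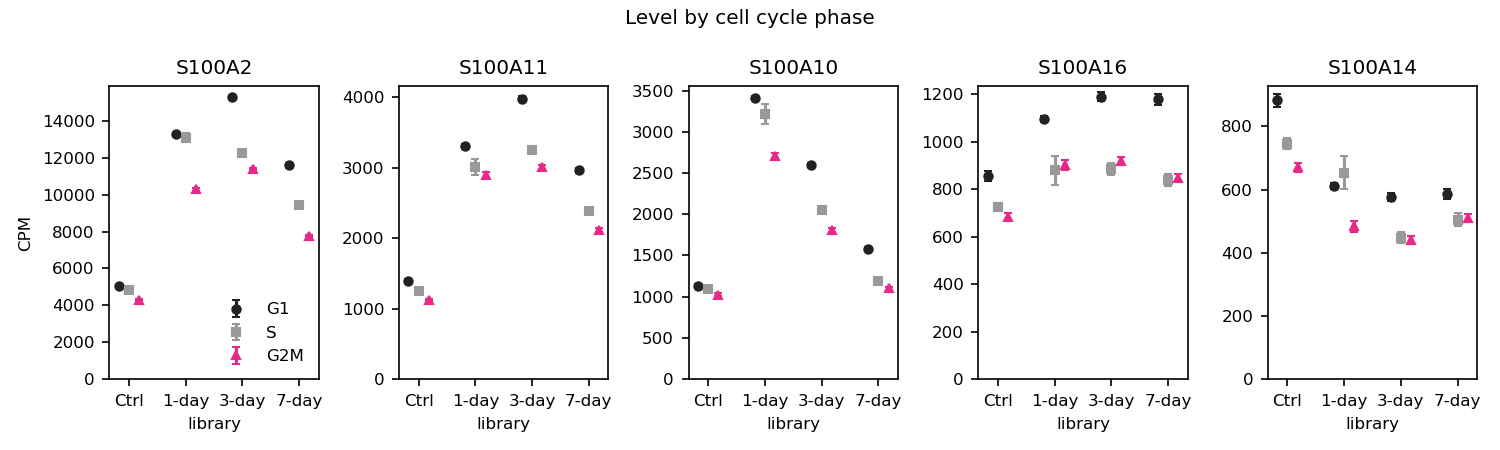
Level in CPM (vertical, from 0) of the 5 abundant members in cells called G1 (circles), S (squares) and G2M (triangles) in each library (horizontal), with exact 95% Poisson intervals for counting error. The G1 point lies above the G2M point for each gene in each library, and the *S100A2* points of the treated libraries lie above those of Ctrl in each phase.

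The keratin *KRT13*, a gene of stratified epithelium, had a UMI in 336 of 933 Ctrl cells. *S100P* was at 13.4 CPM (11.3 to 15.7) in these cells and at 6.68 CPM (5.56 to 7.96) in the 597 without one, and *S100A6* at 9.85 (8.10 to 11.9) and 5.39 (4.39 to 6.56) CPM. The *S100A6* difference rests on the 1 cell with 55 UMIs, without which the cells with *KRT13* had 5.00 CPM (3.77 to 6.49). *S100A2* differed less, at 4970.2 against 4429 CPM, and the median depth was 30726 UMIs per cell against 30070. In G1, S and G2M cells of Ctrl, *S100P* was at 12.8, 12.2 and 5.63 CPM and *KRT13* at 88.4, 89.2 and 43.3 CPM. The *S100P* difference was not recomputed within phases, or without its top cell, which held 30 of 276 UMIs.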

How the data were processed

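Libraries were made from OVCA420 cells with a 10x Genomics 3′ kit, and the authors aligned and counted reads with Cell Ranger 2.0.1 on GRCh38, per the labels. The deposited matrices hold raw UMI counts per gene and cell. The copies used here hold 23.2% to 36.4% of the listed entries, so 572 to 945 cells per library were read of 2253 to 3372 barcodes, and levels describe those cells. Cells with more than 200 genes and at most 20% mitochondrial UMIs were retained (3 to 8 removed per library). Cell names and phases came from no deposited annotation: phases were called with the Seurat 5.3.0 gene lists and doublets were marked with Scrublet in scanpy 1.11.5 (9 to 11 per library) and kept.

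Counts were summed per library and scaled to CPM. Levels carry exact Poisson intervals, ratios exact conditional binomial intervals and shares exact Clopper-Pearson intervals (SciPy 1.17.1), at 95%. UMIs do not remove counting error, and these intervals hold no variation between cultures. Those on levels and ratios also treat the UMIs of 1 cell as independent, so they leave out the spread between cells and are too narrow for it. In thinned cells the variance over the mean was 46.3 for *S100A2* and 5.56 for *S100P* in Ctrl, and 17.3 for *S100A6* at 1-day. With 1 library per condition no test was run, and the study's Wilcoxon test over cells was not used. The floor was 3 UMIs per library. For shares of cells, each cell was thinned to 18000 UMIs, and 20 to 89 shallower cells per library were left out. Correlations used the natural log of 1 plus 10000 times count over total. Scripts were tested on simulated data. Positions are from GENCODE 44, matched by Ensembl ID, and promoter windows from RefSeq (GRCh38.p14). Protein sequences were not used here. *S100A11* has 8 processed pseudogenes in the annotation, of which 0 have a row in the files.

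The members and all gene lists were chosen with earlier results of these data known. Named genes were the 10 members, other family genes at 10 CPM or more in any library, binding partners at least 2-fold from Ctrl at any time plus *ANXA2*, *AHNAK*, *MYH9*, *EZR* and *BSG*, genes of the epidermal differentiation complex at 10 CPM in any library, and the 3 genes most like each member. *LCE3E*, *SPRR1B*, *SPRR3*, *ANXA1* and the genes of *S100A2*-low cells fall outside that rule and were named after their values were seen. Alternatives were other scaling, cell means, thinning, a 10% mitochondrial limit, doublets left out, G1 cells only, totals without S100 genes, a 1.5-fold threshold and, chosen after seeing the data, leaving out the top cell of rare members, also for *S100A6* by *KRT13*, and the settings for *S100A2*-low cells.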

Additional observations from a re-analysis of the deposited data

Results flagged for a closer look

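Among genes for S100 binding partners, 3 had ratios to Ctrl that pointed in opposite directions at different times. *AHNAK* was at log2 0.29 at 1-day, −0.44 at 3-day and −0.51 at 7-day. *EZR* was at −0.60 at 1-day, −0.19 at 3-day and 0.23 at 7-day. *ALCAM* was at −0.55 at 1-day, 0.55 at 3-day and 1.36 at 7-day. Each value is 1 library against the same Ctrl library, so the difference between times was not tested.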

How the results depend on the processing

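No paired analysis was possible because no condition had a second culture. Of 199 recomputed ratios of members to Ctrl, 141 stayed within the counting interval of the reported value, 58 moved beyond it and 0 of those past 2-fold changed sign. Below 2-fold, the sign changed for *S100A9* at 7-day (0.94 in thinned cells, 0.42 as a mean over cells, 0.40 in G1 cells) and for *S100A6* at 1-day (0.24 as a mean over cells, 0.02 with median-of-ratios size factors). Of the 48 recomputed counts of members past the fold, 45 stayed within 1.5 times. The count of members 2-fold higher at 7-day was 2 as reported, 0 with median-of-ratios size factors, 1 in thinned cells and 1 with the 10% mitochondrial limit. Median-of-ratios scaling shifted all log2 ratios by 0.08 at 1-day, 0.02 at 3-day and −0.06 at 7-day. The share of *S100A2*-low Ctrl cells was 14.9% among G1 cells against 11.3%, that at 1-day was 2.77% with the boundary relative to the median against 0.640%, and that at 3-day was 0% in thinned cells against 0.142%. The 12 recomputed median correlations stayed within their limits. Of 120 recomputed correlations of single pairs, 94 stayed within their limits and 26 moved beyond them. Near 0 the sign changed for *S100A2* with *S100A16* at 1-day (−0.07, and 0.04 by Spearman's rho). It also changed for *S100A2* with *S100A14* in Ctrl (0.01, and −0.01 in thinned cells). *S100A11* with *S100A14* at 1-day (0.01) was at −0.00 in thinned cells and in G1 cells. Of 16 recomputed shares of cells, 4 stayed and 12 moved, and all 6 recomputed background shares of genes moved. The causes of these shifts were not tested. The rare members rest on 3 to 276 UMIs per library, which limits their ratios, and *S100A8* was not measurable at this depth.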
